A study of Mus musculus with 24 samples.

Results

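The alpha and beta tubulin genes Tuba1a, Tuba1b, Tuba1c, Tuba4a, Tubb2a, Tubb2b, Tubb3, Tubb5 and Tubb6 were followed in the RNAseq of mouse embryonic stem cells (ESCs) and of neural progenitor cells (NPCs) made from them. They were taken by symbol from the 21909 gene symbols of the expression tables, and all 9 were found, 4 alpha and 5 beta genes. The study mapped nucleolar-associated domains (NADs), the stretches of the genome that lie at the nucleolus, and measured transcriptomes in both cell types. The comparison of NPCs with ESCs asked how expression differs between the cell types whose NADs were mapped.

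The RNAseq had 3 ESC and 3 NPC libraries, numbered as replicates in the labels with no more said of how they were grown apart, and the values of a group are given below in the order of replicates 1, 2 and 3. The ESCs were of the E14 line, kept without feeders on gelatin, in medium with LIF and the inhibitors known as 2i. The NPCs came from the same line through embryoid bodies over 8 days, with 2 µM retinoic acid during the last 4 days, and the labels call them Pax-6-positive radial glial cells. Both groups thus stand for a single laboratory line and a single differentiation protocol, and no sorting of the NPCs was described. The labels give no further treatment for the RNAseq cells. The NADs came from other samples of both cell types, from E14 lines with an inducible H2B-Dam or H2B-Dam-NoLS transgene at 1 copy of Rosa26, induced by 100 ng/mL doxycycline with 1 µM Shield1 for 15 h, and the NPCs among them were taken from the embryoid bodies and plated before that induction. Levels were deposited as RPKM, reads per kilobase of gene scaled to the depth of the library, in 1 table for each cell type. No batch was named in the labels, and a batch that follows the cell type could not be told apart from it.

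Microtubules are hollow polymers of alpha and beta tubulin dimers, and mammals carry several genes, called isotypes, for each subunit. The isotypes are most alike in the globular body of the protein and differ most in the acidic tail at its end, which carries many of the modifications that microtubule-binding proteins read. Tuba1a, Tubb2b and Tubb3 are known for their use in developing neurons, Tubb3 is widely used as a marker of neurons, and Tubb5, Tuba1b and Tuba1c are used by most dividing cells.

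The deposited values hold the depth of each library. Multiplied by a length close to the annotated span of the gene with its introns, RPKM values came out mostly as whole reads. Within 0.05 of a whole number were 94.9% to 95.2% of values up to 1000 reads. With the summed exon length in place of the span, 12.1% to 13.1% came out whole. The reads that the values were scaled to numbered 34051964, 33731990 and 30779702 in ESCs, and 30151252, 27262763 and 32297502 in NPCs. For Tuba1a the length that gave whole reads was 3710 bases, against a span of 3867 bases in GENCODE M21, and for the other genes but Tubb5 it was within 6 bases of the span. For Tubb5, with the most reads, the nearest length of 4385 bases, against a span of 4386 bases, left values up to 0.125 from a whole number. The methods speak of exon coverage, and whether reads outside exons were counted is not given in the sources used here. A level in RPKM is therefore read per kilobase of gene span, and a gene with long introns has a lower RPKM than its transcript length would give. Levels of different genes were accordingly also compared per kilobase of annotated exon, a scale chosen after seeing the data, which holds only as far as the counted reads were exonic.

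ESC replicate 3 stood apart from the other libraries. Over the 7835 tested genes, its log2 levels correlated with those of ESC replicates 1 and 2 at r = 0.963 and r = 0.966, while ESC replicates 1 and 2 correlated at r = 0.999 and the NPC pairs at r = 0.996 to 0.999; these values are across genes, which are not independent replicates. Its summed RPKM was 141243, against 105011 and 106892 in the other ESC libraries, and it held 6139 genes at 1 RPKM or more, against 6643 and 6619. The difference followed gene span. With the placed tested genes in 3 groups of 2559 by span, the median gene of the shortest group lay 0.25 log2 units above the mean of the other ESC libraries in ESC replicate 3, and that of the longest group at -0.25. All 9 tubulin genes read higher there than in the mean of the other ESC libraries, from 1.12 times for Tubb3 to 1.86 times for Tuba1b. By their spans of 10.6 and 12.0 kb, Tubb3 and Tubb6 fall in the middle group, whose median was -0.01, and the others in the shortest. How far span accounts for the tubulin values was not tested. The main results and the counts of the lists below are also given without this library.

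All 9 tubulin genes passed the filter of at least 1 RPKM in 3 or more libraries, and each was at 1 RPKM or more in all 6 libraries. In limma with Benjamini-Hochberg adjustment over the tested genes, 8 of the 9 differed between NPCs and ESCs at the 0.05 threshold, 2 higher in NPCs and 6 lower, while 70.2% of all 7835 tested genes were called, 36.9% higher in NPCs and 33.3% lower. Of the 5937 tested genes that, like the 9, reached 1 RPKM in a library of each group, 60.9% were called, 26.3% higher and 34.6% lower. With quantile normalization, 3 of the 9 were higher and 5 lower, beside 1528 higher and 2403 lower of the 5937 genes. Whether the shares of the 9 genes differ from these was not tested, and the directions and sizes are what set the members apart from each other. The median log2 difference of the 9 genes, NPC minus ESC, was -0.76, beside -0.09 over the 5937 genes and 0.02 over all tested genes; with the filter at 5 RPKM the median of all tested genes was -0.29. Scaling by median ratios moved the median of all tested genes to 0.17, so the differences of Tuba1a and Tuba1b are also given relative to the median. Relative to it all genes but Tubb5 kept their direction in all 14 alternatives; Tubb5 was at 0.05, and at -0.13 per kilobase of exon and -0.02 without ESC replicate 1. In bulk RNA, fewer cells of a type and less RNA per cell cannot be told apart.

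Among the alpha genes, Tuba1a was the member with higher levels in NPCs. Its level was 40.5, 45.9 and 59.9 RPKM in ESCs, and 118, 106 and 111 RPKM in NPCs. Every NPC library lay above every ESC library. The mean level went from 48.8 ± 9.99 to 112 ± 6.09 RPKM (SD, n = 3 each), and the log2 difference on the log2(RPKM + 1) scale was 1.20 with a standard error of 0.17 (limma, Benjamini-Hochberg adjusted p = 8.18e-04). Relative to the median of all tested genes it was 1.17, and 1.23 with median-ratio scaling. Over the 14 alternatives the difference ranged from 1.08 to 1.71 and the call was kept in all of them. Without ESC replicate 3 it was 1.35.

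Tuba1b was the most abundant alpha gene in ESCs. It was at 129, 147 and 257 RPKM in ESCs, and at 103, 96.9 and 98.8 RPKM in NPCs. The groups did not overlap, but ESC replicate 3 alone stood far above the rest. The log2 difference was -0.76 with a standard error of 0.27, a fall that limma with Benjamini-Hochberg adjustment called at adjusted p = 0.0405 and that lost the call with median-ratio scaling (-0.55, adjusted p = 0.0970) and with quantile normalization (-0.16, adjusted p = 0.218). The call held in 7 of 14 alternatives, over which the limma adjusted p ranged from 4.06e-04 to 0.218. Without ESC replicate 3 the difference shrank to -0.46 and limma's adjusted p was 4.06e-04, and without ESC replicate 2 it was -0.86 with limma's adjusted p at 0.0557. Relative to the median of all tested genes the difference was -0.78. The fall of Tuba1b is thus the least stable of the calls among the tubulin genes.

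Tuba1c, the neighbour of Tuba1a and Tuba1b, had a lower level and a larger fall. It read 17.6, 18.7 and 30.3 RPKM in ESCs, and 5.41, 5.65 and 5.07 RPKM in NPCs. The lowest ESC library was more than 3 times the highest NPC library. The log2 difference was -1.82 with a standard error of 0.20 (limma, Benjamini-Hochberg adjusted p = 2.68e-04), and -1.59 without ESC replicate 3. Its call was kept in all 14 alternatives, from -1.98 to -1.59.

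Tuba4a had the largest difference of the 9 genes. This alpha isotype is unusual in that its gene does not encode the terminal tyrosine that most other alpha tubulins carry. It was at 47.5, 51.1 and 75.2 RPKM in ESCs, and at 1.59, 1.28 and 1.30 RPKM in NPCs. The ESC and NPC libraries were far apart, with 9118, 9724 and 13055 reads in ESCs against 270, 197 and 237 reads in NPCs. The mean RPKM in ESCs was 41.7 times that in NPCs, and the log2 difference, which the added 1 RPKM makes smaller, was -4.60 with a standard error of 0.18 (limma, Benjamini-Hochberg adjusted p = 1.56e-06). It ranked 25 from the lowest among the 7835 tested genes. With a pseudocount of 0.1 RPKM the difference was -5.26, and without ESC replicate 3 it was -4.40.

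Tuba4a overlaps Stk16, a kinase gene on the opposite strand, by 1379 bases of the annotation. Stk16 was at 8.70, 9.18 and 11.5 RPKM in ESCs, and at 9.00, 9.44 and 9.52 RPKM in NPCs. Its groups overlapped, and its log2 difference of -0.06 was not called (limma, Benjamini-Hochberg adjusted p = 0.686). Whether strand was used in counting was not given in the sources used here, so reads of the overlap cannot be assigned to either gene with certainty.

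Among the beta genes, Tubb5, the main isotype of dividing cells, had the highest level in every library. It was at 465, 499 and 547 RPKM in ESCs, and at 542, 515 and 536 RPKM in NPCs. The groups overlapped. Its log2 difference was 0.08 with a standard error of 0.16 and was not called (limma, Benjamini-Hochberg adjusted p = 0.675), although quantile normalization (0.69, adjusted p = 0.0166) and the fit without ESC replicate 3 (0.14, adjusted p = 0.0306) each called it higher in NPCs. Over the 14 alternatives limma's adjusted p ranged from 0.0166 to 0.917. A missed threshold does not show that the levels were equal.

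Tubb2b and Tubb2a, near-identical beta genes that lie side by side on chromosome 13, both had lower levels in NPCs. Tubb2b read 105, 109 and 143 RPKM in ESCs, and 44.7, 40.2 and 45.2 RPKM in NPCs. Tubb2a read 10.4, 11.8 and 14.5 RPKM in ESCs, and 4.75, 4.13 and 4.80 RPKM in NPCs. In both genes every ESC library lay above every NPC library. The log2 difference of Tubb2b was -1.42 with a standard error of 0.16 (limma, Benjamini-Hochberg adjusted p = 2.36e-04). That of Tubb2a was -1.24 with a standard error of 0.13 (limma, Benjamini-Hochberg adjusted p = 2.06e-04). Both calls were kept in all 14 alternatives, and without ESC replicate 3 the differences were -1.28 and -1.12. Quantile normalization gave the smallest difference for Tubb2b, -0.90.

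Tubb3, the beta isotype of neurons, was present in ESCs and was lower in NPCs. Its level was 6.42, 7.57 and 7.86 RPKM in ESCs, and 4.47, 3.56 and 4.41 RPKM in NPCs. The groups did not overlap. These levels rest on 2315, 2705 and 2563 reads in ESCs, and on 1427, 1028 and 1508 reads in NPCs. The log2 difference was -0.69 with a standard error of 0.11 (limma, Benjamini-Hochberg adjusted p = 0.00186), the smallest among the members that kept their call in all 14 alternatives. Without ESC replicate 3 it was -0.64. Per kilobase of exon, which changes this gene most because its introns make up most of its span, the levels were 36.4, 42.9 and 44.6 in ESCs, and 25.3, 20.2 and 25.0 in NPCs.

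Tubb6, a minor beta isotype of many tissues, had the opposite direction. It read 3.66, 3.76 and 4.31 RPKM in ESCs, and 8.42, 10.4 and 10.0 RPKM in NPCs. Every NPC library was above every ESC library, with 1501, 1524 and 1596 reads in ESCs and 3055, 3424 and 3903 reads in NPCs. The log2 difference was 1.11 with a standard error of 0.11 (limma, Benjamini-Hochberg adjusted p = 1.31e-04), and 1.17 without ESC replicate 3. It was called higher in all 14 alternatives.

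**Figure D1:**
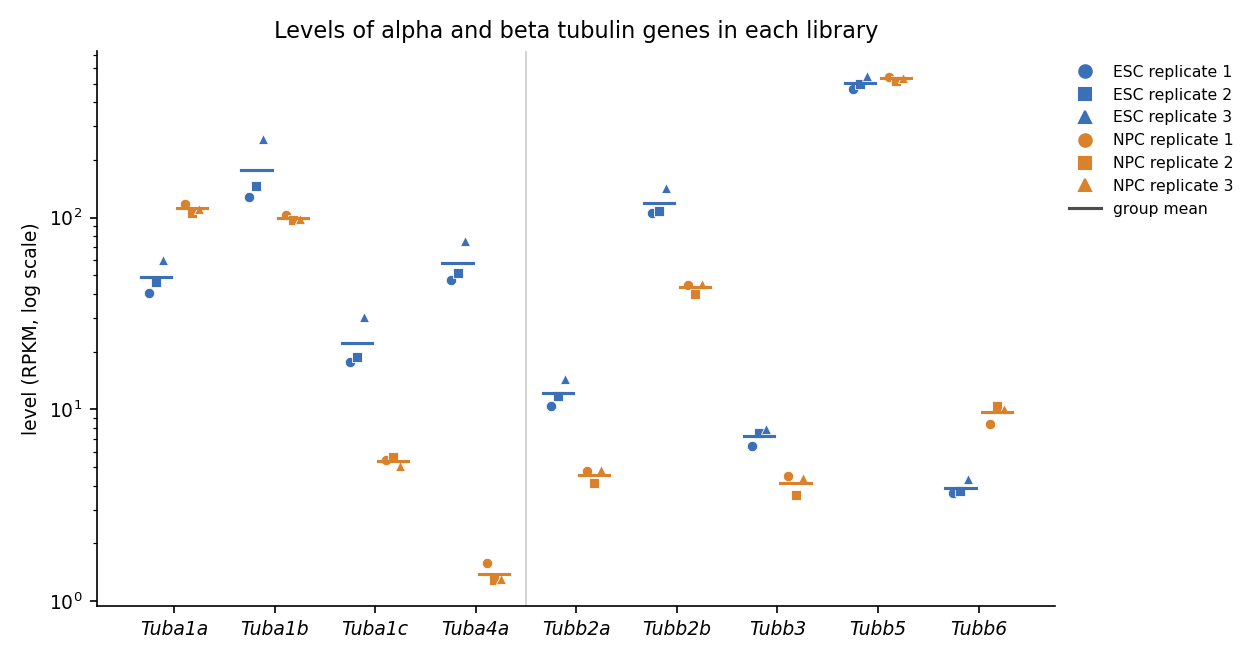
Level of each alpha and beta tubulin gene in RPKM on a log axis, with a point for each of 3 ESC and 3 NPC libraries and a line at the group mean. Tuba1a and Tubb6 are higher in every NPC library, Tubb5 overlaps between the groups, and the other genes are higher in every ESC library; the fall of Tuba1b is not called with median-ratio scaling or quantile normalization.

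The order of the levels differed between the cell types and between scales. Per kilobase of gene span, the ESC means ran from Tubb5 (504 RPKM) through Tuba1b (177), Tubb2b (119), Tuba4a (58.0), Tuba1a (48.8), Tuba1c (22.2), Tubb2a (12.2) and Tubb3 (7.28) to Tubb6 (3.91 RPKM). Tuba1b and Tubb2b, and Tuba4a and Tuba1a, overlapped in range, although the first of each pair was the higher in all 3 ESC libraries. In NPCs the means ran from Tubb5 (531 RPKM) through Tuba1a (112), Tuba1b (99.6), Tubb2b (43.4), Tubb6 (9.64), Tuba1c (5.38), Tubb2a (4.56) and Tubb3 (4.15) to Tuba4a (1.39 RPKM). There the ranges of Tubb2a and Tubb3 overlapped.

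Per kilobase of exon, parts of this order changed. In ESCs Tuba1a (mean 100.3) then stood above Tuba4a (88.3) and Tuba1c (79.7), with overlapping ranges, and Tubb3 (41.3) stood above Tubb2a (28.3) without overlap. In NPCs Tubb3 (23.5) was above Tuba1c (19.3) in 2 of 3 libraries with overlapping ranges, and above Tubb2a (10.6). Tubb5, Tuba1b and Tubb2b kept the first places in ESCs on both scales, and Tuba4a the last place in NPCs. The order of Tuba1a against Tuba4a and of Tubb3 against Tubb2a thus depends on the length used.

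Shares within a library do not depend on its scaling. Within a subunit the shares add up to the whole, so a larger share of a gene comes with smaller shares of others. The 9 shares are therefore not separate results. Of the summed RPKM of the 4 alpha genes, Tuba1a made up 17.3%, 17.5% and 14.2% in ESCs, and 51.8%, 50.6% and 51.4% in NPCs. It went from a minor part of the alpha pool in each ESC library to the largest share in each NPC library, a difference of 34.9 percentage points (two-sided exact permutation test, p = 0.1, the smallest that 3 against 3 can give; 9 shares were compared). Per kilobase of exon the difference was 36.8 points, and without ESC replicate 3 it was 33.8 points. The share of Tuba1b went from a mean of 57.2% to 45.7%. Tuba4a went from a mean of 19.2% to 0.636%, and Tuba1c from 7.27% to 2.47%. None of the alpha shares overlapped between the groups.

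Of the summed RPKM of the 5 beta genes, Tubb5 made up 78.7%, 79.1% and 76.4% in ESCs, and 89.7%, 89.8% and 89.3% in NPCs. Its share was larger in every NPC library although its level was not called different, a difference of 11.5 points (two-sided exact permutation test, p = 0.1, the smallest possible). The share of Tubb2b went from a mean of 18.3% to 7.31%, that of Tubb2a from 1.88% to 0.769%, and that of Tubb3 from 1.13% to 0.698%. That of Tubb6 went from 0.606% to 1.63%. When the other alpha and beta genes of the tables were added to the sums, chiefly Tubb4b, the share of Tubb5 went from a mean of 61.5% to 82.1%. None of the beta shares of the 5 genes overlapped between the groups, and all 9 directions were the same per kilobase of exon and without ESC replicate 3. The sizes moved: without ESC replicate 3 the share of Tuba1b differed by -9.75 points, in place of -11.5, and that of Tubb5 by 10.7 points. Per kilobase of exon the mean share of Tuba1c went from 14.1% to 4.63%, that of Tubb3 from 4.37% to 2.75%, that of Tubb6 from 2.04% to 5.59% and that of Tubb2a from 2.98% to 1.24%. With all beta genes in the sum the share of Tubb3 differed by -0.249 points, in place of -0.430.

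**Figure D2:**
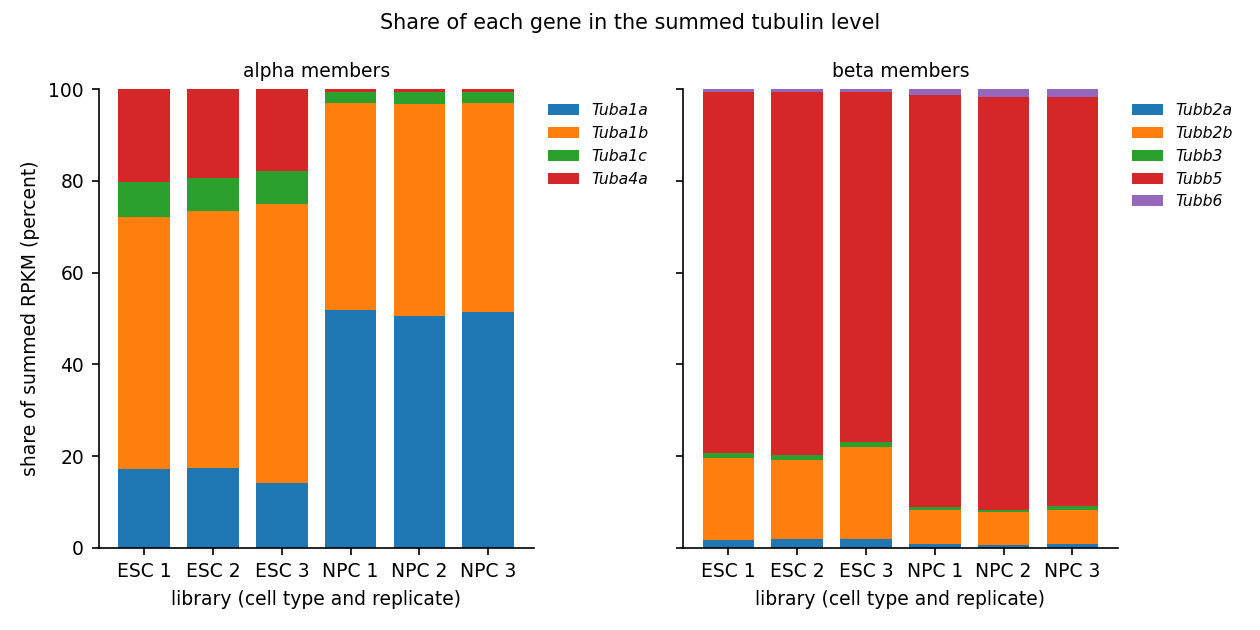
Share of each gene in the summed RPKM of the 4 alpha genes and of the 5 beta genes, in percent, for each of 3 ESC and 3 NPC libraries. Tuba1a goes from 14.2% to 17.5% of the alpha sum in ESC libraries to 50.6% to 51.8% in NPC libraries, and Tubb5 from 76.4% to 79.1% of the beta sum to 89.3% to 89.8%.

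The summed level of each subunit was also compared. The 4 alpha genes summed to 234, 263 and 422 RPKM in ESCs, and to 228, 210.0 and 216 RPKM in NPCs. The groups were adjacent without overlap, with ESC replicate 3 far above the rest (two-sided exact permutation test, p = 0.1, the smallest possible). They overlapped with median-ratio scaling (p = 0.7 in the exact permutation test) and per kilobase of exon (p = 0.2). The difference of means, -88.0 RPKM, was -49.1 RPKM with median-ratio scaling, -147 on the exon scale and -30.2 RPKM without ESC replicate 3. With median-ratio scaling and without ESC replicate 3, the ESC mean of 233.4 RPKM was slightly below the NPC mean of 235.4 RPKM. The direction of the alpha sum is thus not stable. The 5 beta genes summed to 591, 630.4 and 717 RPKM in ESCs, and to 604, 574 and 600.3 RPKM in NPCs. The beta sums overlapped, with a difference of -53.2 RPKM (exact permutation test, p = 0.3). It was -18.0 RPKM without ESC replicate 3 and -93.6 on the exon scale, and it turned to 37.8 RPKM with median-ratio scaling. The direction for these 5 genes thus depends on the scaling. With the other alpha and beta genes of the tables added, the alpha sums differed by -103 RPKM, and the beta sums were 754, 808 and 894 RPKM in ESCs, and 658, 627 and 655 RPKM in NPCs. The groups then did not overlap in either sum (exact permutation test, p = 0.1 each), and Tubb4b alone made up -122 of the beta difference of -172 RPKM. The ratio of beta to alpha sums was 2.52, 2.401 and 1.70 in ESCs, and 2.65, 2.73 and 2.78 in NPCs. It was higher in every NPC library (exact permutation test, p = 0.1), but the groups overlapped per kilobase of exon (p = 0.2), and the difference of 0.510 was 0.255 without ESC replicate 3. With all alpha and beta genes the difference was 0.299 with overlapping groups (exact permutation test, p = 0.7), and without ESC replicate 3 the ESC mean of 2.98 was then slightly above the NPC mean of 2.97, so the higher ratio is not stable.

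How well the isotypes can be told apart differs along the family, and it was taken for 100-base reads, the length in the labels; the methods also name longer reads. The share of all distinct 100-base stretches of a gene's annotated transcripts that occur in no other gene's transcripts, on either strand, was 34.2% for Tuba1a, 34.8% for Tuba1b and 54.0% for Tuba1c. It was 63.1% for Tubb2a and 74.0% for Tubb2b, 67.6% for Tuba4a, whose shared stretches all belong to Stk16, and 100% for Tubb3, Tubb5 and Tubb6. Tuba1a shared stretches with 13 other genes and Tuba1b with 13, most with Tuba1c. How reads that match several places were treated was not given in the sources used here. The levels of Tuba1a, Tuba1b, Tuba1c, Tubb2a and Tubb2b are uncertain to that extent, while Tubb3, Tubb5 and Tubb6 have no such shared stretch. In the annotation Gm49450 overlaps Tuba1a by 3715 bases and Tuba1b by 2429 bases on the same strand, and Gm41396 overlaps Tuba1b by 241 bases on the other strand. Gm20388, which was listed at 0 in all 6 libraries, covers the whole span of Tubb3 on the same strand.

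The coding sequences were compared as well. Over the aligned coding bases, Tuba1a was 98.3% identical to Tuba1b, 97.2% to Tuba1c and 85.1% to Tuba4a. Tuba1a and Tuba1b, the most alike of these pairs, had differences of opposite sign between the cell types, of which that of Tuba1b lost its call with median-ratio scaling and with quantile normalization.

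For the beta genes, Tubb2a and Tubb2b were 96.5% identical over the aligned coding bases, and Tubb2a and Tubb3 84.1%. The last 60 coding bases before the stop codon, which encode the tail, are given for 4 beta genes, since these stretches include those that set Tubb3 apart; capitals mark bases that differ from, or are inserted against, Tubb2a in a global alignment, and all run 5′ to 3′ on the coding strand (GENCODE M21 on GRCm38). They lie in the last coding exon, at chr13:34074471-34074530 (minus strand) for Tubb2a, chr13:34127474-34127533 (minus strand) for Tubb2b, chr8:123421620-123421679 (plus strand) for Tubb3 and chr17:35834985-35835044 (minus strand) for Tubb5.
Tubb2a: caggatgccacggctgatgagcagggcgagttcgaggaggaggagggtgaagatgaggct
Tubb2b: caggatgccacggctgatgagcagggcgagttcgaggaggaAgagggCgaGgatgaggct
Tubb3: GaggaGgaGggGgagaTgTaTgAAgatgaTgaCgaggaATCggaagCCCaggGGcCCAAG
Tubb5: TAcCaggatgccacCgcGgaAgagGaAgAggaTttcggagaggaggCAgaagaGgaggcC
Tubb2b carries 3 capitals, Tubb5 14 and Tubb3 24. Bases of Tubb2a that are missing from another gene are neither marked nor counted here. With gaps included, 95% of the aligned columns of these ends were identical to Tubb2a in Tubb2b, 71.9% in Tubb5 and 52.9% in Tubb3. Tubb2a and Tubb2b fell by similar amounts, and the part of shared reads in that was not tested.

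Promoter sequences of RefSeq (GRCm38.p6) were matched by symbol for 7 of the 9 genes, all but Tubb2b and Tubb6. In the 250 bases before each start, 3 motifs were searched on both strands. The core of the TATA box, TATAA, which reads TTATA on the other strand, was in 22.8% of all 32851 promoters of that length. The CCAAT motif, on the other strand ATTGG, was in 33.8% of them. The GC box, searched as GGGCGG, with CCGCCC as its other strand, was in 32.7%. The windows of Tuba1c and Tubb2a, which fell, and of Tubb5, which was not called, are shown with the matches in capitals, at chr15:99029641-99029890 (plus strand), chr13:34078009-34078258 (minus strand) and chr17:35838302-35838551 (minus strand).
Tuba1c: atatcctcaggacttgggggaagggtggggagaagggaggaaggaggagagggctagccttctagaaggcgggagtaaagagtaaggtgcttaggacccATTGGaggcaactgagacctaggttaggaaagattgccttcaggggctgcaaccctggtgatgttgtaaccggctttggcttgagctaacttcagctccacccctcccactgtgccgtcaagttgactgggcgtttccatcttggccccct
Tubb2a: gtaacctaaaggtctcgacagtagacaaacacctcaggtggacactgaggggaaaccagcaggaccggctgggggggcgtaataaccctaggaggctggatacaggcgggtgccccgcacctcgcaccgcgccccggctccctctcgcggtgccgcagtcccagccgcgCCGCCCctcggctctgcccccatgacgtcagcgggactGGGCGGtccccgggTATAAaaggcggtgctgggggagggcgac
Tubb5: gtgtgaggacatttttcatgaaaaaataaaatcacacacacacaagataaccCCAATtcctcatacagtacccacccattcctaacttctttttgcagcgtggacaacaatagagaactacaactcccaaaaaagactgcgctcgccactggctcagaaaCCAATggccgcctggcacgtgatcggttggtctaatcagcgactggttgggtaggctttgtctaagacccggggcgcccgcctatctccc
Tuba1c holds 1 match of the CCAAT motif and Tubb5 holds 2, while Tubb2a holds 1 TATA core and 2 GC boxes. Of the windows not shown, Tuba1a held 1 match of each motif, Tuba1b and Tuba4a held 2 GC boxes each, and Tubb3 held 2 overlapping TATA cores, 1 on each strand, with 1 CCAAT motif and 2 GC boxes. No motif of the 3 was in the windows of all the genes that fell. A match is a description of letters and shows no bound factor.

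The positions of the genes were set against the NADs, of which 1 list per cell type was used, holding the NADs common to 2 replicates. The lists held 1769 NADs in ESCs and 1447 in NPCs on mm10. Of the 9 genes, Tubb2a lay in an ESC NAD and Tubb3 in an NPC NAD, and no other gene overlapped a NAD by 1 base or more. Tubb2a (chr13:34074274-34078007) lay wholly within the ESC NAD chr13:33601384-34099717, whose score of 0.0330 ranked 584, and 74.6 kb from the nearest NPC NAD. Tubb2b (chr13:34126748-34130466) lay 27.0 kb outside that ESC NAD and 127 kb from the nearest NPC NAD. The DamID was analysed at a resolution of 100 kb, so the gaps of 27.0 and 74.6 kb are below it, and a border between Tubb2a and Tubb2b, which both fell, is not resolved. As background, 27.1% of all placed genes overlapped an ESC NAD and 21.6% an NPC NAD, and on chromosome 13 the shares were 38.1% and 32.8%.

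Tubb3 (chr8:123411424-123422015) lay wholly within the NPC NAD chr8:123400386-123499617, whose score of 0.0558 ranked 364, and 411 kb from the nearest ESC NAD. This NAD is no wider than the resolution. Its level was lower in NPCs, where it lay in the NAD. Tubb2a, and Tubb4b outside the 9 genes, were instead higher in ESCs, where each lay wholly in a NAD. On chromosome 8, however, NPC NADs covered 77.6% of the bases and overlapped 725 of 1023 genes (70.9%), against 19.5% of the bases and 133 genes for ESC NADs, so the position of Tubb3 is that of most genes of its chromosome. The other genes lay 262 kb or more from any ESC NAD except for the Tubb2 pair, and Tuba1a, Tuba1b and Tuba1c, which lie within a short stretch of chromosome 15, were 3.36 to 3.47 Mb from the nearest NPC NAD. Tuba4a, with the largest fall, was 581 kb from the nearest ESC NAD and 714 kb from the nearest NPC NAD. The lists have no values per replicate, so these positions carry no test.

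**Figure D3:**
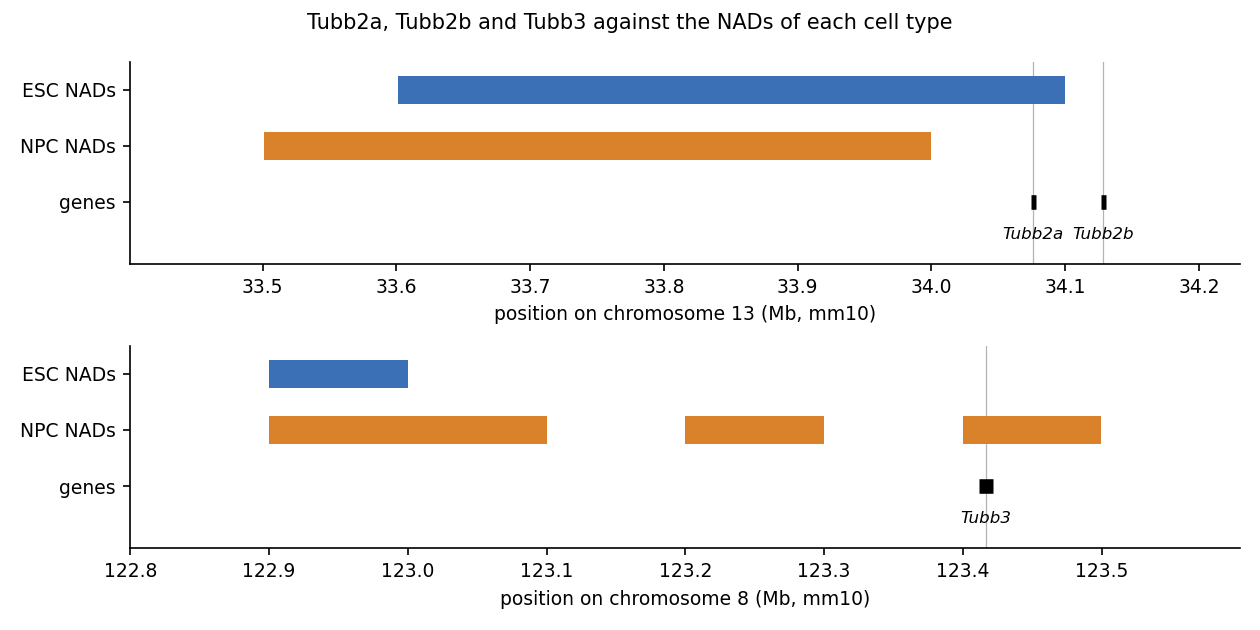
Map of the Tubb2a and Tubb2b region on chromosome 13 and of the Tubb3 region on chromosome 8 (mm10, position in Mb), with NADs of ESCs and NPCs as bars and genes as black blocks. Tubb2a lies inside an ESC NAD and 74.6 kb from the NPC NAD, Tubb2b lies 27.0 kb outside the same ESC NAD, and Tubb3 lies inside an NPC NAD; gaps under 100 kb are below the resolution of the DamID.

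The cell type labels were checked against markers. The 6 genes of pluripotent cells, led by Pou5f1, summed to 389, 391 and 451 RPKM in ESCs, and to 2.22, 2.095 and 2.23 RPKM in NPCs, where Klf4 made up most of the sum. The 6 genes of neural progenitors and radial glia, led by Vim, summed to 39.6, 41.1 and 49.5 RPKM in ESCs, and to 80.0, 84.1 and 86.2 RPKM in NPCs. All 6 were at a mean of 1 RPKM or more in NPCs, 2 of 6 in ESCs, and Pax6 had a mean of 0.0115 RPKM in ESCs and 1.55 RPKM in NPCs. Nes went from a mean of 3.46 to 30.6 RPKM, while Vim, which made up most of the sum, was not called. The markers thus went with the labels.

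Markers of other cell types also differed between the groups. The 8 neuron genes summed to 5.16, 5.07 and 7.05 RPKM in ESCs, nearly all from Stmn2, and to 3.92, 3.62 and 4.19 RPKM in NPCs, where Neurod1 led at a mean of 1.27 RPKM. In each group 1 gene of the list was at a mean of 1 RPKM or more. Dcx was listed at 0 in the ESC libraries and had a mean of 0.916 RPKM in NPCs, and Map2 and Rbfox3 had means of 0.147 and 0.0172 RPKM there. Of the genes of the list other than Stmn2, each read higher in every NPC library than in every ESC library, while Stmn2, like Tubb3, was lower. The 6 mesoderm, muscle and fibroblast genes summed to 1.05, 1.12 and 1.02 RPKM in ESCs, and to 43.1, 49.2 and 49.6 RPKM in NPCs, with 3 of 6 at a mean of 1 RPKM or more there and none in ESCs. Col1a1 led at a mean of 23.7 RPKM, while T, Mesp1 and Myh6 had lower means in NPCs (0.0123, 0.0284 and 0.0110 RPKM) than in ESCs (0.959, 0.0343 and 0.0271 RPKM). The 6 endoderm genes summed to 0.0977, 0.115 and 0.0834 RPKM in ESCs, and to 14.7, 16.2 and 15.7 RPKM in NPCs, led by Gata6 at a mean of 6.69 RPKM, with 4 of 6 at a mean of 1 RPKM or more, and with Ttr at a mean of 0.152 RPKM.

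The 5 genes of blood and endothelium summed to 1.31, 1.27 and 0.975 RPKM in ESCs, led by Pecam1, and to 5.05, 4.49 and 4.301 RPKM in NPCs, led by Kdr, with 1 and 2 of 5 at a mean of 1 RPKM or more and with Ptprc listed at 0 in NPCs. The 6 genes of astrocytes and oligodendrocytes summed to 0.999, 0.871 and 0.999 RPKM in ESCs, led by Aldh1l1, and to 0.831, 0.945 and 0.820 RPKM in NPCs, and none reached a mean of 1 RPKM in either group. Beside those of neural progenitors, the NPC libraries thus held transcripts of Col1a1, Col3a1 and Acta2 and of 4 endoderm genes, but not more of the other 3 genes of the mesoderm list. Their part in the tubulin results was not tested.

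The genes most like Tuba1a and Tubb3 were found by the Euclidean distance of centred log2 levels over the 6 libraries. For Tuba1a these were Pfkl, Pink1 and Trip6, at distances of 0.16, 0.18 and 0.20. Pfkl, the nearest, read 8.93, 9.20 and 12.0 RPKM in ESCs, and 23.6, 22.9 and 23.4 RPKM in NPCs. For Tubb3 they were Pim2, Slc25a20 and Prdx3, at distances of 0.20, 0.21 and 0.22.

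Other genes of the microtubule system were followed in 6 lists, of 103 genes in all, by the same limma fit with Benjamini-Hochberg adjustment. A gene below 1 RPKM in every library of a group passed the filter through the other group alone and had to differ in that direction; 1345 of all tested genes were so in ESCs and 553 in NPCs. Counts are therefore given for the genes that reached 1 RPKM in a library of each group, of which 60.9% were called over the whole table, 26.3% higher and 34.6% lower; without ESC replicate 3, 2093 of the 5937 were higher and 2894 lower. They describe the lists and support no direction of a list. Of the 11 other tubulin genes, 5 were tested; Tubb4a passed through NPCs alone and Tuba3a through ESCs alone, and of the other 3 genes 1 was higher and 1 lower, also without ESC replicate 3. Tubb4b, a widely used beta isotype left out of the sums above unless stated, read 163, 178 and 177 RPKM in ESCs, and 50.1, 50.6 and 51.6 RPKM in NPCs. It was lower in every NPC library, with a log2 difference of -1.75 (limma, Benjamini-Hochberg adjusted p = 1.63e-05). With quantile normalization the difference was -1.15 and the call was kept. Tuba3a, known as a testis isotype, went from a mean of 14.5 RPKM in ESCs to 0.00732 RPKM in NPCs. Tubb4a, an isotype of the brain, went from 0.0626 to 3.04 RPKM, a log2 difference of 1.93, and Tube1, the epsilon tubulin, rose by 0.44, a call lost with quantile normalization. Tubg1, the gamma tubulin of nucleation sites, was the tested gene that was not called, at means of 10.2 and 9.17 RPKM.

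The list of tubulin folding holds the chaperonin CCT, prefoldin and the tubulin cofactors. Of its 22 genes 21 were in the tables and 18 were tested, none of them through a single group. In NPCs 11 were lower, 1 was higher and 6 were not called, beside 60.9% called, 26.3% higher and 34.6% lower, over the whole table, and without ESC replicate 3 the counts were 12 lower and 3 higher; the median log2 difference was -0.63, beside -0.09 over the matching 5937 genes, and it was -0.47 with median-ratio scaling, -0.20 with quantile normalization and -0.43 without ESC replicate 3. With quantile normalization 9 were lower and 3 higher, beside 2403 and 1528 of the 5937 matching genes. Without NPC replicate 1 or 3 the number called went from 12 to 7, beside 5500 to 4651 and 4623 over all tested genes. Cct3, a chaperonin subunit, went from a mean of 37.7 to 15.9 RPKM (log2 difference -1.17). Pfdn6, a prefoldin subunit, went from 70.9 to 32.0 RPKM (-1.03), a difference that was -0.69 without ESC replicate 3 and -0.54 with quantile normalization. Its call was lost without NPC replicate 1 (limma, Benjamini-Hochberg adjusted p = 0.0638) or 3 (0.0615). Arl2, a small GTPase that works with the cofactors, was the gene that rose, from 4.61 to 7.87 RPKM (0.71), a call lost when any 1 library other than ESC replicate 3 was left out, and kept without that replicate (0.98).

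Of the 23 genes of tubulin modification 10 were tested. Of these, 3 passed the filter through NPCs alone, and of the other 7 genes 5 were higher in NPCs, 1 was lower and 1 was not called, beside 26.3% higher and 34.6% lower over the whole table; without ESC replicate 3 the counts were 6 higher and 1 lower. Vash1 and Vash2, which remove the terminal tyrosine of alpha tubulin, went from means of 0.0900 and 0.0376 RPKM in ESCs to 2.89 and 2.13 RPKM in NPCs, log2 differences of 1.83 and 1.59, and are among the 3 that passed through NPCs alone. The added 1 RPKM shrinks differences that involve low levels. With a pseudocount of 0.1 RPKM they were 4.01 for Vash1 and 4.02 for Vash2, 4.27 for Tubb4a, 2.64 for Map1a and -3.71 for Stmn2. Likewise they were 2.31 for Map1b, -2.03 for Camsap3, 0.88 for Nedd1, 0.86 for Spast, 0.75 for Tube1 and 0.63 for Kif2a. Hdac6, a deacetylase of alpha tubulin, was the gene that fell, from 7.83 to 4.95 RPKM (-0.56). The genes that were not tested lay under the filter.

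Of the 10 genes of microtubule nucleation, 9 were tested, 1 of them through NPCs alone. Of the other 8 genes 2 were higher and none lower, beside 26.3% and 34.6% over the whole table. With median-ratio scaling the counts were 5 and 0, beside 2038 and 1536 of the 5937 matching genes. Without ESC replicate 3 they were 5 and 1, beside 2093 and 2894. Quantile normalization gave 2 and 2, beside 1528 and 2403. Tubgcp2, a subunit of the gamma tubulin complex, rose by 0.52. Nedd1, which brings that complex to the centrosome, rose by 0.45, a difference that vanished with quantile normalization, and passed the filter through NPCs alone. Of the 28 genes of microtubule binding, 14 were tested, of which 4 passed through NPCs alone and 2 through ESCs alone. Of the other 8 genes 2 were higher and 2 lower, beside the same 26.3% and 34.6%. The counts were 5 and 2 without ESC replicate 3, 4 and 1 with median-ratio scaling, and 3 and 1 with quantile normalization. Over the 5937 matching genes they were, in that order, 2093 and 2894, 2038 and 1536, and 1528 and 2403. Map1a and Map1b, structural proteins of neuronal microtubules, went from means of 0.576 and 0.819 RPKM to 3.80 and 3.98 RPKM (1.62 and 1.49), and both were lowest in ESC replicate 3; Map1a passed through NPCs alone. Stmn2, a destabilizer known from neurons, fell from 5.28 to 0.306 RPKM (-2.25), and Camsap3, which binds minus ends, from 3.27 to 0.686 RPKM (-1.30), and both passed through ESCs alone.

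Of the 9 genes of severing and depolymerization, 6 were tested, 1 of them through NPCs alone. Of the other 5 genes 1 was higher and 3 lower, beside 26.3% and 34.6% over the whole table. The counts were 1 and 4 without ESC replicate 3, 1 and 1 with median-ratio scaling, and 0 and 4 with quantile normalization. Over the 5937 matching genes they were, in that order, 2093 and 2894, 2038 and 1536, and 1528 and 2403. Spast, a severing enzyme that passed through NPCs alone, rose by 0.52, and by 0.24 with quantile normalization. Kif2a, a depolymerizing kinesin, rose by 0.38, a call lost with quantile normalization. Fignl1 fell by 0.33, a call lost with median-ratio scaling and without NPC replicate 2 (limma, Benjamini-Hochberg adjusted p = 0.0513). Kif2b and, among the other tubulin genes, Tubal3 were listed at 0 in all 6 libraries.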

How the data were processed

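PolyA-selected RNA of 3 ESC and 3 NPC samples was sequenced as single-end reads of 100 bases by the labels, while the methods also name paired-end and longer reads. RPKM per gene were deposited by the authors, whose methods name STAR as the aligner and whose processing notes to the database list Bowtie2 2.3.4.3 and Subread 1.4.6-p4 without their roles, and NADs with a score per region were deposited by the authors for each cell type, in a column with no unit named; the methods describe log2 ratios of H2B-Dam-NoLS over H2B-Dam. The sources name different library kits, of which 1 keeps strand, and the annotation is not given in the sources used here.

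The members and lists were chosen with earlier results of these data known. Of symbols on several lines (153), the line with the highest mean was kept. Genes with at least 1 RPKM in 3 or more libraries (7835) were tested on log2(RPKM + 1) with limma 3.58.1 (trend, two-sided, Benjamini-Hochberg over all tested genes, called below 0.05) in R 4.3.3, tested on simulated data. Shares and sums were compared by exact permutation tests in scipy 1.17.1, with p-values not adjusted. Alternatives were another pseudocount, other filters, median-ratio scaling, quantile normalization, a replicate block, samples left out in turn, symbols on several lines left out, all alpha and beta genes, NADs by transcription start or at the median score and above, and exon lengths, the last chosen after seeing the data. Besides the tubulin genes and markers, the text names up to 2 called genes per direction in each list, of which 1 is not reported here, and the 3 genes most like Tuba1a and Tubb3; Stk16, Tubg1, Gm49450, Gm41396, Gm20388 and the list genes at 0 were chosen after their values were seen. Gene spans, exons and transcripts were from GENCODE M21 (GRCm38), NAD starts were taken to count from 0 and raised by 1, and alignments used edlib 1.3.9.post1. The members had 197 or more reads in each library, and p-values measure the spread between replicates of a single protocol, whose independence is not described.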

Additional observations from a re-analysis of the deposited data

How the results depend on the processing

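None of the 9 tubulin genes changed direction under any of the 14 alternatives of the fit; 2 lost or gained a call, as given with Tuba1b and Tubb5, and the number called was 7 to 9. Alternatives that leave out a library gave 7 to 9 called tubulin genes, 4616 to 6884 called genes in all, 2517 to 3437 higher and 2093 to 3447 lower, 36 to 55 called genes of the lists, a Tuba1a share difference of 33.8 to 35.5 points, and differences of -124 to -30.2 RPKM in the alpha sum, -80.7 to -18.0 RPKM in the beta sum and 0.255 to 0.668 in the ratio of beta to alpha.

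Counts of called genes followed how many were tested: without a filter 11454 genes were called (7245 higher, 4209 lower) and 68 of the lists, with at least 5 RPKM in 3 or more libraries 2215 (858 higher, 1357 lower) and 17 of the lists, and per kilobase of exon, a scale chosen after seeing the data, 8585 (5086 higher). The share difference of Tuba1a was 36.8 points per kilobase of exon. The difference of the beta sum was -172 RPKM with all alpha and beta genes, of which Tubb4b, counted only there, made up -122, and it turned to 37.8 RPKM with median-ratio scaling, which rescales each library; the cause of that turn was not tested. Nedd1 reversed to -0.00138 with quantile normalization (limma, Benjamini-Hochberg adjusted p = 0.979), and the cause was not tested. Of 267 values of named list genes under alternatives, 255 kept direction and call and 11 kept direction but lost the call. These genes were named from the called ones, and several passed the filter through a single group, so this tally is no measure of stability.

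With the replicate number as a block (replicate block), 5214 genes were called (2754 higher, 2460 lower), 43 of the lists and 8 of the tubulin genes. Deviations of same-numbered samples correlated at 0.114, -0.0827 and 0.0323, and not every sample correlated best with its own number. The deviations were taken from the means of groups of 3, so these correlations depend on each other. Whether the numbers pair the samples cannot be told from them. The paired differences were 34.9 points for the Tuba1a share, -88.0 and -53.2 RPKM for the alpha and beta sums and 0.510 for their ratio. They equal the differences of group means by construction, so they are no separate check. The same 2 genes lay in a NAD by transcription starts and with NADs at or above the median score, but distances grew: the NPC NAD nearest to Tubb2a and Tubb2b is below that score, and the next lay 1674 and 1727 kb away. Depth limits Tuba4a in NPCs most, at 197 to 270 reads.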
